A study of Mus musculus with 8 samples.

Results

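The 10 genes described here carry hepatic bile acid synthesis and transport: the synthesis enzymes Cyp7a1, Cyp8b1, Cyp27a1 and Cyp7b1, the conjugating enzyme Baat, the transporters Slc10a1 and Abcb11, and the regulators Nr1h4, Nr0b2 and Fgfr4. They were chosen by name, 10 of 21938 protein-coding genes in the annotation, and their accessible chromatin was read at the promoter (an interval within 1 kb of an annotated transcription start site, TSS) and at distal regions (within the gene body or 10 kb either side of it, and outside that gene's promoters). Of 73710 consensus regions in the whole series, 45 were distal regions of these genes.

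Chromatin accessibility was profiled by ATAC-Seq of bulk nuclei, a method based on the cutting and tagging of open DNA by Tn5 transposase, in hepatocytes that collagenase perfusion had freed from the livers of mice. The labels give the strain as C57BL/6, the age as 10 to 12 weeks and the diet as normal, whereas the study's methods name the substrain C57BL/6J, all males, and a slightly younger age at surgery. The 4 groups were undamaged liver (0 h) and liver taken 48, 72 and 96 h following partial hepatectomy (PHx), an operation that removes part of the liver, and each group held 2 libraries. Undamaged liver was the only reference analysed here, so the operation itself and the time since it cannot be told apart, and a bulk measurement cannot tell fewer open cells from less open chromatin per cell.

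Each library was represented by its own list of peaks. After lines of the same interval were joined, the lists held 105206 to 154577 intervals, and the −log10 p of the 50000th interval ranged from 8.05 to 15.2, lowest in both 48 h libraries and in 96 h replicate 2. Because no read counts are in these lists, the depth is unknown. Intervals were therefore compared by rank, where rank 1 is the interval with the highest −log10 p in its library. A promoter or region "ranked lower" at a time point if both libraries of that time stood further from the top than both 0 h libraries, and "ranked higher" in the reverse case. Ranks beyond 105206, the length of the shortest list, were treated as equal to absence. These counts carry no p-value, since the smallest two-sided p of an exact permutation test of 2 libraries against 2 is 0.33, and all comparisons use the same 0 h libraries. The study describes its bulk replicates at 0 and 48 h as biological ones from separate hepatocyte preparations, of which 2 libraries per time are analysed here. Its methods state separate mice for hepatocyte isolation at all 4 times and statistics on independent replicates, but the labels do not tie a library to a mouse. In 7 of the 8 lists the name carried the same sequencing lane, and 72 h replicate 2 did not.

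Of 6 hepatocyte marker promoters, 4 and 5 stood among the 50000 strongest intervals at 0 h, and 3 to 4 in each later library. The Alb promoter, of the plasma protein albumin, was listed in both 0 h libraries and in 96 h replicate 1 and in none of the other 5. Of 7 Kupffer and immune cell marker promoters, 5 were in no list (Csf1r, Cd5l, Ptprc, Cd3e and Cd79a) and 0 were in all 8. Of 5 endothelial markers, Stab2 and Lyve1 were in no list and Kdr was in all 8, at rank 43888 to 111152. Clec4g, an endothelial marker, was listed at rank 11982 in 48 h replicate 2 and at rank 12339 in 96 h replicate 1, and in no other library. Of 5 bile duct markers, Krt19 was in no list, while Epcam (rank 2827 to 29081), Sox9 (25721 to 55869) and Slc10a2 (35268 to 96750) were in all 8. Of 4 stellate cell markers, Lrat (18175 to 37592) and Reln (2038 to 23627) were in all 8. Reln and Des ranked higher than undamaged liver at 48 h, beside 15.7% of coding promoters, and Reln did so at 96 h, beside 13.4%. Des was weak, at rank 117523 and not listed at 0 h and at 89442 and 70520 at 48 h. At any time 0 immune, endothelial or bile duct markers ranked lower or higher. Only 2 of the 7 immune, 3 of the 5 endothelial and 4 of the 5 bile duct markers were listed within rank 105206 in any library. The others could not rank apart. The part of these markers in the members' ranks was not tested.

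Bile acids are made from cholesterol in hepatocytes. The classical route begins with Cyp7a1, its rate-limiting enzyme, and Cyp8b1 then sets how much cholic acid is formed, while Cyp27a1 and Cyp7b1 serve an alternative route. Baat joins bile acids to taurine or glycine, Slc10a1 takes them up from portal blood, and Abcb11 pumps them into the bile canaliculus. The bile acid receptor FXR, encoded by Nr1h4, induces Nr0b2, a repressor without a DNA-binding domain, and Fgfr4 receives the gut hormone Fgf15. Both signals repress Cyp7a1 and so close the feedback loop on synthesis.

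By rank, the promoters of the 10 genes as a set stood further from the top of the lists after PHx, while their normalized fold enrichment, given with the linear model, lay on both sides of the 0 h level. An interval was listed at all 10 promoters in 7 libraries and at 9 in 72 h replicate 1, where Cyp8b1 had none. Among the 50000 strongest intervals of a library were 9 of the 10 promoters in each 0 h library, then 7 and 9 (48 h), 7 and 6 (72 h) and 8 and 7 (96 h). Of all coding promoters 79.7% and 78.9% were there at 0 h and 78.5% to 80.5% later. The median rank of the 10 was 29607.5 and 24580.5 in undamaged liver, 35243.5 and 33019.5 (48 h), 37541.5 and 47078 (72 h) and 32919 and 40157.5 (96 h). All 6 later values were thus lower in the lists than both 0 h values. Over the 15690 coding promoters listed within the shared range, the median was 14540 and 13712 at 0 h and 14170.5 to 17220.5 later, and 96 h replicate 2 overlapped the 0 h libraries. Measured instead as a percentage of each list's own length from the top, the members' median was 23.4% in both 0 h libraries, and 96 h replicate 1 stood above them at 22.7%, with the other 5 later libraries at 23.7% to 31.5%.

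**Figure D1:**
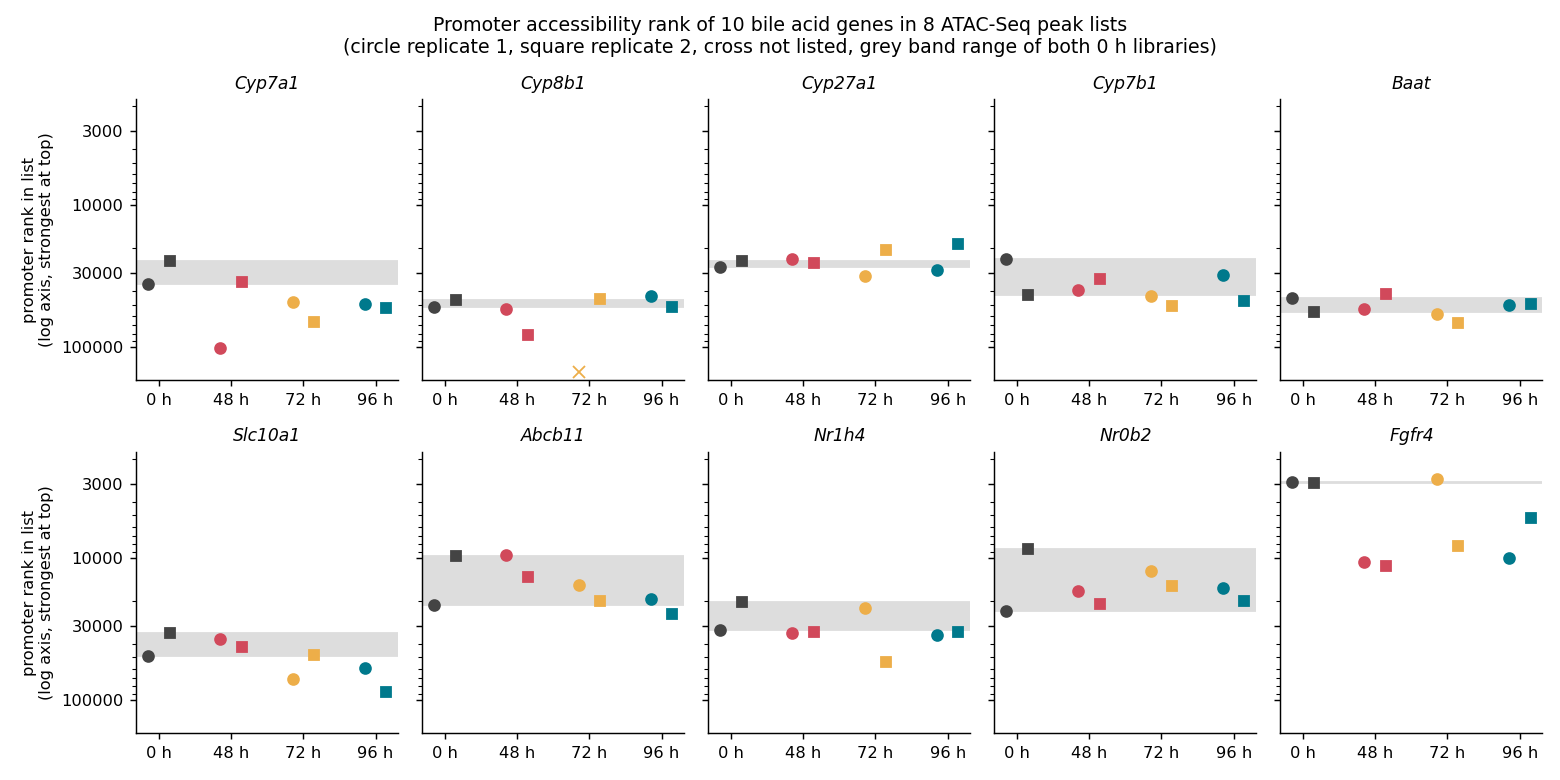
Rank of the strongest promoter interval of each of the 10 genes (log axis, strongest at the top) in 8 libraries grouped by time (h) since PHx, with circles for replicate 1, squares for replicate 2, a cross where no interval was listed and a grey band over the range of both 0 h libraries. Fgfr4 ranked at 2910 and 2939 at 0 h and at 10676 and 11433 at 48 h, and Cyp7a1 lay below the band at 72 and 96 h.

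Counted gene by gene, 3 of the 10 promoters ranked lower at 48 h (Cyp8b1, Nr1h4 and Fgfr4), beside 26.0% of coding promoters, and 0 ranked higher, beside 15.7%. At 72 h 3 ranked lower (Cyp7a1, Cyp7b1 and Baat), beside 28.4%, and 0 higher, beside 15.1%. At 96 h 4 ranked lower (Cyp7a1, Nr1h4, Slc10a1 and Fgfr4), beside 17.9%, and 0 higher, beside 13.4%. In all 6 later libraries 0 ranked lower, beside 6.98%, and 0 higher, beside 3.95%. The counts of lower promoters at 48 and 72 h were thus near the share of all coding promoters. No member ranked lower at all 3 times. Without 72 h replicate 2, whose list name lacked the shared lane, 6 promoters ranked lower and 1 higher at 72 h, beside 41.2% and 26.2% of coding promoters, where 1 library instead of 2 had to clear the 0 h range.

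These counts changed with the scale. With the percentage of the list in place of the rank, 2 promoters stood lower and 2 higher at 48 h, beside 20.5% and 19.1% of coding promoters. At 72 h 1 stood lower and 0 higher, beside 15.2% and 26.6%, and at 96 h 3 stood lower and 1 higher, beside 11.3% and 21.3%. In all later libraries 0 stood lower and 0 higher, beside 3.44% and 6.57%. The calls that held under this scale and under the 4 other alternatives (ranks by fold enrichment, 500 bp promoters, intervals with q under 0.05, and a summit inside the promoter) were those of Fgfr4 at 48 h, of Cyp7a1 at 72 and 96 h and of Slc10a1 at 96 h. Over the same times, 5, 4 and 3 of the 6 hepatocyte marker promoters ranked lower at 48, 72 and 96 h and 0 ranked higher, and their part in the members' ranks was not tested.

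Cyp7a1 (chr4:6265612-6275633 on mm10, minus strand) was the only one of the 4 synthesis enzymes among the members whose promoter ranked lower at both 72 and 96 h. Its promoter ranked 35712 and 24633 in undamaged liver, 101378 and 34726 (48 h), 48310 and 66476 (72 h) and 49771 and 53057 (96 h). Both 72 h and both 96 h libraries were lower than undamaged liver, while at 48 h replicate 2 fell inside the 0 h range and replicate 1 near the end of the list. The fold enrichment over local background was 6.38 and 7.83 in undamaged liver, 2.15 and 5.91 (48 h), 5.16 and 3.42 (72 h) and 5.93 and 4.08 (96 h). Each of the 6 later values was below both 0 h values. So was the median fold enrichment of each whole list, at 4.55 and 5.07 in undamaged liver and 3.73 to 4.29 later, and the values quoted here as fold enrichment are not normalized for this. In a linear model across all promoters listed in all 8 libraries (limma on quantile-normalized log2 fold enrichment, Benjamini-Hochberg adjustment over 13220 promoters), the log2 change was -0.69 ± 0.40 (SE, n = 2 per time) at 48 h, -0.66 ± 0.40 at 72 h and -0.41 ± 0.40 at 96 h. None of these passed the threshold of 0.05, with adjusted p from limma of 0.608, 0.866 and 0.999. The 48 h value rested on 1 library: leaving out 48 h replicate 1 gave 0.05, and leaving out 48 h replicate 2 gave -1.45. Without 1 library the 72 h value ranged from -0.95 to -0.38 and the 96 h value from -0.65 to -0.18.

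In 6 of the 8 libraries the Cyp7a1 summit lay between -274 and -220 bp from the TSS. The exceptions were 48 h replicate 1 at 26 bp and 72 h replicate 1 at -30 bp, so the interval read there was not the same peak top. The 200 bases around the summit in the strongest library (0 h replicate 2, chr4:6275753-6275952 on GRCm38.p6, the sequence of mm10, gene strand), shown because the change at the rate-limiting enzyme was read here, held 1 of the searched motifs, a FOXA match in capitals.
Cyp7a1 promoter: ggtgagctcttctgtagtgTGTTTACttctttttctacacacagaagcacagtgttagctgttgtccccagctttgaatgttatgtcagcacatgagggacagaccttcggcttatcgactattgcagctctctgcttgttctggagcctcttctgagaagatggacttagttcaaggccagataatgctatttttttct
The motifs, sought on both strands and with overlaps allowed, were the FXR palindrome core GTCANTGAC, HNF4 CAAAGTCCA, DR1 GGTCANAGG, NR5A2 CAAGGTCA, HNF1 GTTAATNAT, FOXA TGTTTAC or TATTTAC, C/EBP TTGCNNAA and AP-1 TGANTCA. A FOXA match was present in 2.31% of the summit windows of all 15690 coding promoters. Over the 10 member promoters the searched letters were found in 3, FOXA in Cyp7a1, C/EBP in Slc10a1 (4.58% of all) and AP-1 in Nr0b2 (3.0% of all). The FXR core, at 0.261% of all coding promoters, matched in 0 of the 10.

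Cyp8b1 (chr9:121914356-121916305, minus strand), the sterol 12-alpha-hydroxylase, had a weak and narrow promoter interval. It ranked 51789 and 46674 in undamaged liver, 53906 and 81568 (48 h), 46023 in 72 h replicate 2, and 43251 and 52377 (96 h), and was not listed in 72 h replicate 1. The 48 h libraries were lower than both 0 h libraries, and by fold enrichment they were not, with 2.97 and 2.92 at 48 h against 3.39 and 2.78 at 0 h. Absent from 1 list, this promoter was not in the linear model.

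In the alternative route, Cyp27a1 (chr1:74713574-74737892, plus strand), the mitochondrial sterol 27-hydroxylase, ranked 27259 and 24528 in undamaged liver, 23881 and 25477 (48 h), 31554 and 20536 (72 h) and 28401 and 18664 (96 h). The later libraries lay on both sides of the 0 h range, and the log2 change was 0.16 ± 0.26, 0.23 ± 0.26 and 0.22 ± 0.26 (SE) at 48, 72 and 96 h. Cyp7b1 (chr3:18071950-18243338, minus strand), the oxysterol 7-alpha-hydroxylase, ranked 23906 and 42874 in undamaged liver, 39616 and 32901 (48 h), 43529 and 51365 (72 h) and 30985 and 47442 (96 h). The wide gap between its 0 h libraries covered both 48 h libraries, and the 72 h call was lost with the percentage scale and with ranks by fold enrichment.

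The Cyp7b1 promoter differed in where its summit lay. Relative to the TSS the summit was at 135 and 186 bp at 0 h and at 251 and 397 bp at 48 h, inside the gene, and at -524 and -561 bp at 72 h and -309 and -297 bp at 96 h, before the gene. All 4 libraries of 72 and 96 h were thus on the other side of the TSS from all 4 of 0 and 48 h. The intervals were 1142 to 1371 bp wide in 7 libraries and 380 bp in 48 h replicate 1, and the wide ones spanned both positions. This pattern was picked after its values were seen, and summits that changed sides of the nearest TSS in this way were found at 1 of the 9 member promoters listed in all 8 libraries and at 0.234% of 13220 coding promoters.

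**Figure D2:**
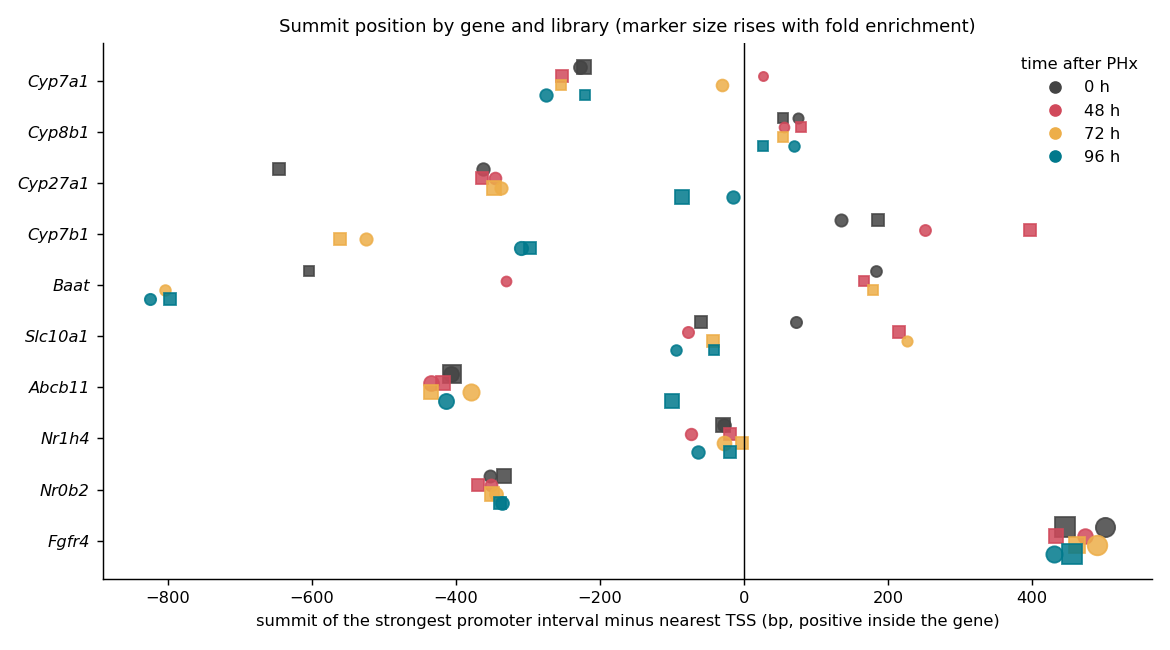
Summit of the strongest promoter interval relative to the nearest TSS (bp, positive inside the gene) for each gene and library, coloured by time after PHx, with circles for replicate 1 and squares for replicate 2. Cyp7b1 summits sat at 135 to 397 bp at 0 and 48 h and at -561 to -297 bp at 72 and 96 h, while the 8 Fgfr4 summits sat between 431 and 501 bp.

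Baat (chr4:49489422-49506557, minus strand) ranked 45284 and 56325 in undamaged liver, 53922 and 42288 (48 h), 58136 and 67745 (72 h) and 50704 and 49333 (96 h). Both 72 h libraries lay below the 0 h range, and 48 h replicate 2 lay above it. As a percentage of the list the 72 h libraries fell inside the range. Its log2 changes were 0.10 ± 0.29, -0.15 ± 0.29 and 0.21 ± 0.29 (SE) at 48, 72 and 96 h. The strongest Baat interval was not the same peak in every library, so these values compare different intervals. It was an interval at chr4:49503642-49504461 in 0 h replicate 2, intervals within chr4:49507203-49507482 in 72 h replicate 1 and both 96 h libraries, and intervals within chr4:49506226-49507008 in the other 4.

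Of the transporters, Slc10a1 (chr12:80953183-80968705, minus strand), the sodium-dependent importer NTCP, ranked 49170 and 33915 in undamaged liver, 36901 and 42267 (48 h), 71132 and 48133 (72 h) and 59265 and 86891 (96 h). The 48 h libraries fell inside the 0 h range and both 96 h libraries below it. Fold enrichment at this promoter was 4.41 and 5.14 at 0 h and 3.90 and 3.19 at 96 h, a log2 change of -0.40 ± 0.29 (SE, n = 2 per time, adjusted p 0.999 from limma).

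Abcb11 (chr2:69238282-69342616, minus strand), the canalicular export pump BSEP, ranked 21369 and 9633 in undamaged liver, 9438 and 13583 (48 h), 15535 and 20021 (72 h) and 19406 and 24610 (96 h). Every library except 48 h replicate 1 and 96 h replicate 2 lay within the 0 h range. Fold enrichment was 8.64 and 11.5 at 0 h and 7.77 to 10.1 in the 6 later libraries, and the log2 change was 0.21 ± 0.22, 0.01 ± 0.22 and -0.14 ± 0.22 (SE) at 48, 72 and 96 h. The summit stood at -434 to -379 bp in 7 libraries and at -100 bp in 96 h replicate 2. The 200 bases at the strongest summit (48 h replicate 1, chr2:69342950-69343149, gene strand) are given as those of the stronger of the 2 member transporters, and none of the searched motifs matched there.
Abcb11 promoter: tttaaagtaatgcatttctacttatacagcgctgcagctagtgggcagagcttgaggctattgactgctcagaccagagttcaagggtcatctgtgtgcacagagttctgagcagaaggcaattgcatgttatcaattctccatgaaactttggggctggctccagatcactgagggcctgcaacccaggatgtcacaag

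Among the regulators, Fgfr4 had the best median rank of the 10 promoters and ranked lower at 48 h under all 5 alternatives. Fgfr4 (chr13:55152640-55168759, plus strand) ranked 2910 and 2939 in undamaged liver, 10676 and 11433 (48 h), 2777 and 8160 (72 h) and 9953 and 5205 (96 h). The 48 and 96 h libraries all lay below the 0 h libraries, which stood close together, and 72 h replicate 1 stood above them. Fold enrichment was 13.3 and 15.1 in undamaged liver, 8.27 and 7.77 (48 h), 13.7 and 10.6 (72 h) and 10.1 and 13.6 (96 h). The log2 change was -0.39 ± 0.20 (SE, n = 2 per time) at 48 h, with p 0.067 and adjusted p 0.549 from limma, -0.09 ± 0.20 at 72 h and -0.18 ± 0.20 at 96 h. Leaving out 1 library at a time kept the 48 h value between -0.50 and -0.29, and the 96 h rank call was lost with ranks by fold enrichment.

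All 8 Fgfr4 summits lay 431 to 501 bp inside the gene, in an intron. The window of the strongest summit (72 h replicate 1, chr13:55153030-55153229, gene strand), shown because this promoter had the best median rank of the 10, had 67.0% G and C and no match to the searched motifs.
Fgfr4 promoter: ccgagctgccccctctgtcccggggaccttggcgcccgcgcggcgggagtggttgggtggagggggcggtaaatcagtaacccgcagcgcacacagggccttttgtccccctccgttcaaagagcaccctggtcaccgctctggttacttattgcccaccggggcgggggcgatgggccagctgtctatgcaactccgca

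Nr1h4 (chr10:89454234-89533585, minus strand), which has 3 annotated TSS, ranked 31956 and 20348 in undamaged liver, 33586 and 33138 (48 h), 22275 and 53898 (72 h) and 34853 and 32873 (96 h). The 48 and 96 h libraries lay just below the 0 h range, and these calls were lost with the percentage scale and with ranks by fold enrichment. The 48 h call also set different promoters side by side, since the strongest interval was at another TSS in 48 h replicate 1 (chr10:89533103-89533983) than in the other 7 libraries (within chr10:89506395-89507109). Nr0b2 (chr4:133553376-133556536, plus strand), which encodes the repressor SHP, ranked 23398 and 8661 in undamaged liver, 17000 and 21080 (48 h), 12393 and 15591 (72 h) and 16253 and 20169 (96 h). Every later library lay inside the 0 h range. Its log2 changes of 0.07, 0.17 and 0.09 had a standard error of 0.26.

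The Nr0b2 summit lay between -369 and -333 bp in the 8 libraries. The window of the strongest summit (0 h replicate 2, chr4:133552943-133553142, gene strand) is shown because all later libraries lay inside the 0 h range, and its capitals mark an AP-1 match.
Nr0b2 promoter: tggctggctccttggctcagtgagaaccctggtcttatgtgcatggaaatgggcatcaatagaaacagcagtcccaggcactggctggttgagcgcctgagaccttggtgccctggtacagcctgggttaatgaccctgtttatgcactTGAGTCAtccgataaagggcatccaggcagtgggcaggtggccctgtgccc

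**Figure D3:**
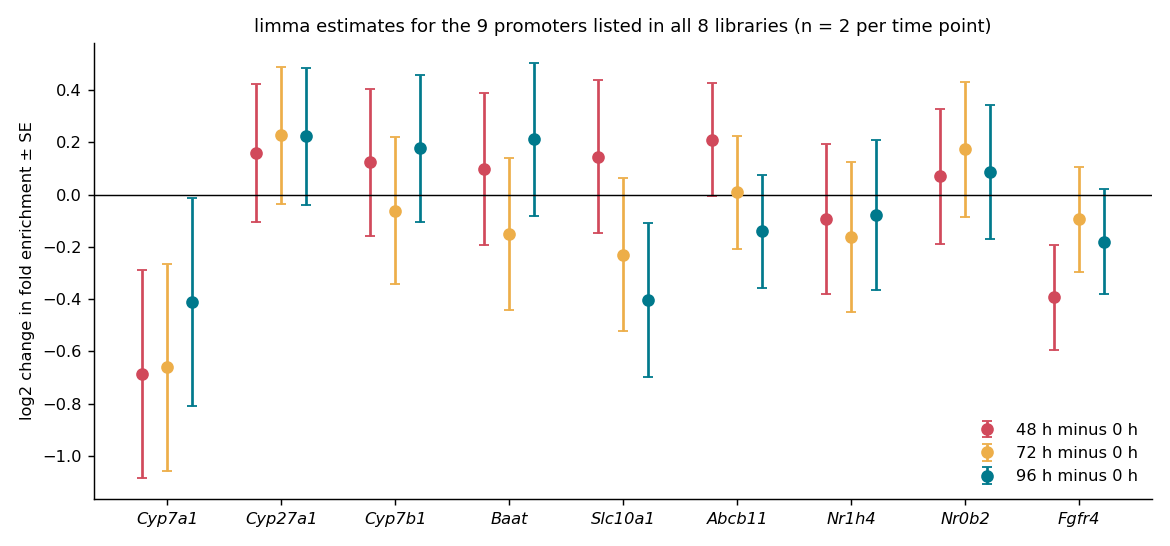
Change in log2 fold enrichment from 0 h with its standard error (limma, n = 2 libraries per time) for the 9 promoters listed in all 8 libraries, at 48, 72 and 96 h after PHx. The Cyp7a1 estimates are -0.69, -0.66 and -0.41, and those of the other 8 genes lie between -0.40 and 0.23.

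Across the 9 member promoters in the linear model, 0 were called at any time or for all later libraries together. Over all 13220 promoters limma called 0 at 48 h (0.0%), 0 at 72 h (0.0%), 0 at 96 h (0.0%) and 0 over all later libraries (0.0%), although 1313 (9.93%), 830, 619 and 1003 had an unadjusted p under 0.05. With −log10 p fitted in place of fold enrichment, limma called 13, 6, 2 and 37 promoters, of which 0 were members. Of the 9 member estimates, 3 (48 h), 6 (72 h), 5 (96 h) and 4 (all later libraries) lay below 0, and the others above it. The members' median log2 change was 0.10 at 48 h, -0.09 at 72 h and -0.08 at 96 h, beside 0.00, -0.01 and 0.00 over all promoters.

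The distal regions of the 10 genes stood lower after PHx more often than higher by rank. The 45 regions were 203 to 2227 bp wide (median 641), and 32 were listed in all 8 libraries. By position 21 lay in introns of their gene, 14 downstream, 9 upstream and 1 over a coding exon, and 3 coincided with the promoter of a neighbour (Gas2l3, Nudc or Srsf5). Nr1h4 had 11, Cyp7b1 9, Nr0b2 5, Abcb11 4, Cyp7a1, Cyp8b1, Slc10a1 and Baat 3 each, and Cyp27a1 and Fgfr4 2 each.

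At 48 h 14 of the 45 regions ranked lower (31.1%), beside 22.8% of the 59130 consensus regions outside coding promoters, and 6 higher (13.3%), beside 19.0%. At 72 h 16 ranked lower (35.6%), beside 19.0%, and 3 higher (6.67%), beside 21.8%. At 96 h 16 ranked lower (35.6%), beside 18.4%, and 5 higher (11.1%), beside 17.0%. In all 6 later libraries 4 ranked lower (8.89%), beside 5.42%, and 1 higher (2.22%), beside 4.12%. Without 72 h replicate 2, 26 ranked lower and 9 higher at 72 h, beside 32.0% and 36.2% of regions. These shares of all regions leave out coding promoters, whereas the 45 include the 3 at promoters of neighbours, 2 of which (at Gas2l3 and Srsf5) ranked lower at 48 h. Over the other 42 the regions that ranked lower were 12 (28.6%) at 48 h, 15 (35.7%) at 72 h, 15 (35.7%) at 96 h and 4 (9.52%) in all later libraries, and those that ranked higher were 6, 3, 5 and 1 as before.

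With the percentage scale the split turned at 72 h and over all later libraries, and at 96 h lower regions still outnumbered higher ones. At 48 h it depended on the 3 regions at neighbours' promoters, without which 9 stood lower (21.4%) and 10 higher (23.8%). As a percentage of the list, 11 stood lower and 10 higher at 48 h, beside 17.1% and 23.0% of regions. At 72 h 5 stood lower and 12 higher, beside 7.81% and 37.7%, and at 96 h 10 stood lower and 8 higher, beside 10.3% and 25.4%. In all later libraries 2 stood lower and 3 higher, beside 2.21% and 7.43%. These were 24.4% (lower) and 22.2% (higher) of the member regions at 48 h, 11.1% and 26.7% at 72 h, then 22.2% and 17.8% at 96 h. Over the 42, the share that stood lower on this scale was 9.52% at 72 h and 23.8% at 96 h, and the share that stood higher 28.6% and 19.0%. By rank, the share of the 42 that stood lower was above that of all regions at each time and the share that stood higher below it. On the percentage scale the same held at 72 and 96 h, with 9.52% against 7.81% close at 72 h, and at 48 h both shares lay near those of all regions. Regions of a gene share a locus and are not independent.

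Of the 45, 5 regions are described individually because they lay apart from both 0 h libraries in all 6 later libraries. The region that ranked higher was in an intron of Nr1h4 (chr10:89527090-89527468), 6306 bp inside the gene from its nearest TSS. It ranked 80106 and 99137 in undamaged liver, 40468 and 56897 (48 h), 45015 and 54340 (72 h) and 49862 and 76278 (96 h). Fold enrichment there was 3.20 and 2.27 in undamaged liver, 4.26 and 3.66 (48 h), 5.50 and 4.50 (72 h) and 5.26 and 3.35 (96 h), so all 6 later values exceeded both 0 h values while the list medians were lower. The log2 change was 0.82 ± 0.31 at 48 h, 0.87 ± 0.31 at 72 h and 0.69 ± 0.31 (SE, n = 2 per time) at 96 h. For all later libraries it was 0.79 ± 0.25, with p 0.00512 and adjusted p 0.435 over 55123 regions (limma), which did not pass. The rank call held in all 3 alternatives (the percentage scale, intervals with q under 0.05, and intervals that cover 50% of the region). Leaving out 1 library kept the change between 0.54 and 1.0. Both 0 h ranks lay beyond the 50000 strongest intervals that made the consensus regions, so the region was included only through later libraries. The alternatives and omissions reuse that choice and are no separate support for the call. As the only region of the 45 that ranked higher in all later libraries, it is shown by its summit window (chr10:89527126-89527325, gene strand), where capitals mark an AP-1 match, found in 9.01% of regions.
Nr1h4 intron: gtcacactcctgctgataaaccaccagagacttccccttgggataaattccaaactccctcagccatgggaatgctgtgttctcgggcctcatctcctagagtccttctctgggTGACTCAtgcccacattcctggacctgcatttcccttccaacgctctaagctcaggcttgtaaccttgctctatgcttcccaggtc

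Lower regions were in an intron of Cyp27a1, beyond the 3' end of Nr0b2, in an intron of Slc10a1 and upstream of Baat. The Cyp27a1 region (chr1:74719147-74719795, 5897 bp inside the gene) ranked 41344 and 38271 in undamaged liver, 100020 and 114450 (48 h), 47946 and 48225 (72 h) and 80290 and 52648 (96 h). It was lowest in both 48 h libraries, where fold enrichment was 2.0 and 1.84 against 3.71 and 3.34 at 0 h, a log2 change of -0.76 ± 0.27 (SE, n = 2 per time, p 0.0116 and adjusted p 0.358 from limma). The calls at 72 h and over all later libraries were lost with the percentage scale, and the log2 change at 72 h was 0.07 ± 0.27. The Cyp27a1 promoter ranked within or above its 0 h range in the same 48 h libraries.
Cyp27a1 intron: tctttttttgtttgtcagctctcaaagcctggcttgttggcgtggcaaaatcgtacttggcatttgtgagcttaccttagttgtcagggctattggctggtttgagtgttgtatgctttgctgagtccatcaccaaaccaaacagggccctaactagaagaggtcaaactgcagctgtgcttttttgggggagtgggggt

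The Nr0b2 region (chr4:133563003-133563756, 10004 bp from the TSS) ranked 27168 and 16366 in undamaged liver, 42838 and 63418 (48 h), 36340 and 49144 (72 h) and 36318 and 43701 (96 h). All 6 later libraries were lower, under all 3 rank alternatives, and fold enrichment, not normalized, was 7.80 and 7.61 at 0 h against 3.40 to 6.62 later. Ranks by fold enrichment, used for the promoters, were not among the alternatives for regions. The log2 change over all later libraries was -0.43 ± 0.26 (SE, adjusted p 0.715 from limma). Its window is shown for comparison with the promoter window above, and its capitals mark an NR5A2 match, found in 1.84% of regions.
Nr0b2 downstream: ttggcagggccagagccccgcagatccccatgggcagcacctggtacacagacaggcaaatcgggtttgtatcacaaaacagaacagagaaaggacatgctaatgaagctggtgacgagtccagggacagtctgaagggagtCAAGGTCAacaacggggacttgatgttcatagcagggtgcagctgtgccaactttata

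The Baat region (chr4:49510221-49510628, 3868 bp before the TSS) ranked 47145 and 32193 at 0 h, 89162 in 48 h replicate 1, 65269 and 97235 at 72 h, and 58520 and 89028 at 96 h, and was not listed in 48 h replicate 2. All later libraries were lower under the 3 rank alternatives, and fold enrichment was 4.81 and 6.53 at 0 h and 2.72 to 4.64 in the 5 later libraries that listed it. Only its 0 h ranks lay among the 50000 strongest intervals that made the consensus regions. The region was thus included only through the libraries where it ranked high. The alternatives reuse that choice and are no separate support for the call. For want of an interval in 1 list it had no value in the main linear model. With the missing interval set to the list minimum, its log2 change over all later libraries was -0.88 ± 0.49 (SE, p 0.0965 and adjusted p 0.740 from limma).
Baat upstream: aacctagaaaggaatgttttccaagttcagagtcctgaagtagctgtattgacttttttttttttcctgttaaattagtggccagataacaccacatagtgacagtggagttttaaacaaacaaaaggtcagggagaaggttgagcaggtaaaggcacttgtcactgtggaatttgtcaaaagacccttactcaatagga

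The Slc10a1 region (chr12:80966151-80966723, 1547 bp inside the gene) ranked 44641 and 40852 in undamaged liver, 60301 and 57424 (48 h), 45257 and 60340 (72 h) and 48805 and 89441 (96 h). In 72 h replicate 1 it lay close to 0 h replicate 1, and the calls at 72 h, at 96 h and over all later libraries were lost with the percentage scale. The log2 change over all later libraries was -0.17 ± 0.24 (SE), less than its error.

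**Figure D4:**
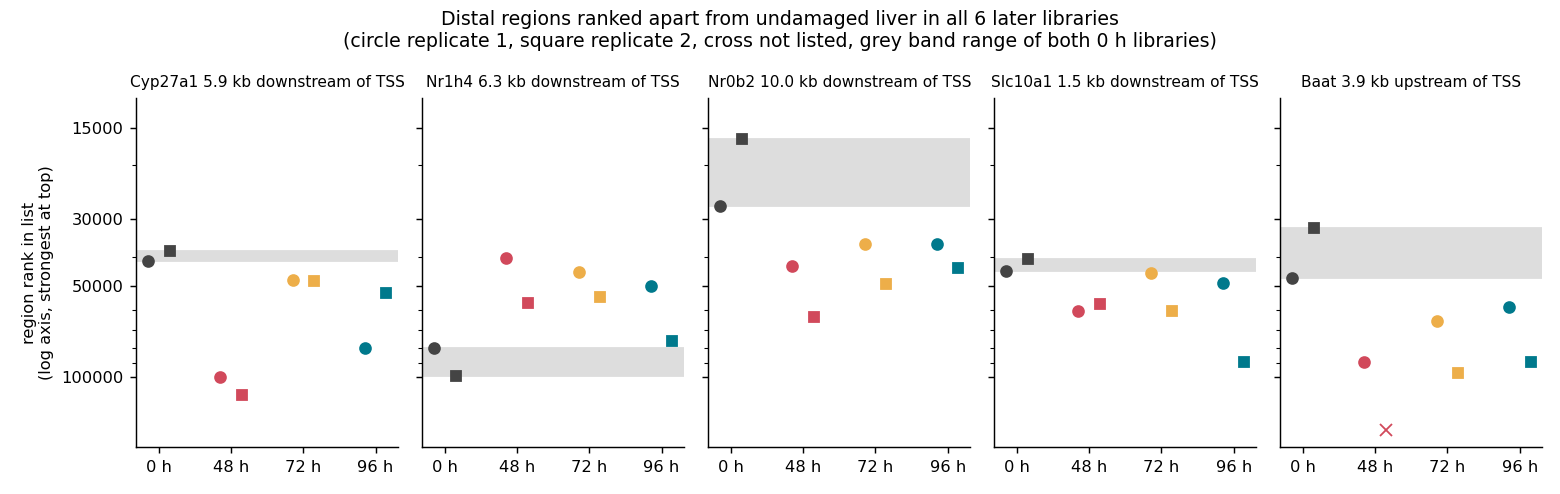
Rank in each library (log axis, strongest at the top) of the 5 distal regions that lay apart from both 0 h libraries in all 6 later libraries, with circles for replicate 1, squares for replicate 2, a cross where the region was not listed and a grey band over the 0 h range. The Nr1h4 region ranked 80106 and 99137 at 0 h and between 40468 and 76278 later, and the other 4 stood below their 0 h range.

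The distal region with the best median rank was also read for each gene. For Nr1h4 it was an intron region 35623 bp inside the gene (chr10:89470651-89471401) at rank 7702 and 9042 in undamaged liver, 4974 and 8965 (48 h), 13345 and 10854 (72 h) and 11472 and 13396 (96 h). Its ranks were lower at 72 and 96 h, but not as a percentage of the list, and its log2 changes of 0.34, -0.10 and -0.06 had a standard error of 0.24. For Cyp7b1 it was an intron region (chr3:18190954-18192015) at rank 30403 and 32235 in undamaged liver, 34520 and 22120 (48 h), 32295 and 24020 (72 h) and 19589 and 16556 (96 h). That region ranked higher at 96 h, with fold enrichment of 12.8 and 11.5 against 5.13 and 8.68 at 0 h, and a log2 change of 0.94 ± 0.29 (SE, n = 2 per time, p 0.00418 and adjusted p 0.730 from limma). The 96 h call was lost when an interval had to cover 50% of the region.

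For Baat the best region lay downstream (chr4:49485421-49486421) at rank 24879 and 16860 in undamaged liver, 48790 and 69141 (48 h), 22103 and 18935 (72 h) and 19600 and 28475 (96 h). It was low at 48 h alone, with fold enrichment of 3.46 and 2.97 against 5.82 and 6.97 at 0 h (log2 change -0.72 ± 0.31, SE, adjusted p 0.436 from limma), and the call was lost when an interval had to cover 50% of the region. For Cyp27a1 the best region (chr1:74721071-74722267) ranked 23540 and 17739 at 0 h and 16483 and 11556 at 48 h, higher, while the intron region 5897 bp inside the gene ranked lower. This higher call was likewise lost with 50% cover. Its 72 h values were 22697 and 41431, and its 96 h values 16897 and 26224, around the 0 h range.

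For Cyp7a1 the best region lay downstream (chr4:6262124-6263697) at rank 23022 and 21628 at 0 h and between 16751 and 41605 later, lower at 72 and 96 h. Both calls were lost with 50% cover, and that at 72 h also with the percentage scale. For Cyp8b1 (chr9:121905435-121906075) it ranked 34126 and 34559 at 0 h and higher at 96 h, at 31128 and 24344. For Slc10a1 (chr12:80975661-80976840, upstream) the ranks were 19125 and 16830 at 0 h and 32096 and 21088 at 96 h, lower. For Abcb11 (chr2:69275889-69276224, an intron) they were 49360 and 50216 at 0 h and 63573 and 65555 at 72 h, lower, but not as a percentage of the list. For Fgfr4 (chr13:55171457-55172445, downstream) they were 30340 and 25457 in undamaged liver, 20188 and 18412 (48 h), 47384 and 33253 (72 h) and 24264 and 40355 (96 h). The region was thus higher at 48 h and lower at 72 h by rank, and the 72 h call was lost with the percentage scale. The best region assigned to Nr0b2 (chr4:133545239-133546299) is the promoter of Nudc, whose ranks of 1924 to 5439 overlapped at all times.

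Nr1h4, the gene with the most distal regions, had regions of both directions. Of its 11 regions, 1 ranked lower and 3 higher at 48 h, 6 lower and 3 higher at 72 h, and 6 lower and 1 higher at 96 h. Of all regions, 22.8% (48 h), 19.0% (72 h) and 18.4% (96 h) ranked lower, while 19.0%, 21.8% and 17.0% ranked higher. With the percentage scale 4 of the 6 lower calls at 72 h and 3 of the 6 at 96 h were lost. The 9 regions inside the gene body numbered 0 lower and 2 higher (48 h), 5 and 3 (72 h) and 6 and 1 (96 h). The region at the promoter of its neighbour Gas2l3 (chr10:89442788-89444307) ranked 5206 and 5518 in undamaged liver, 21246 and 26056 (48 h), 8356 and 19297 (72 h) and 26390 and 2617 (96 h). An intron region 47582 bp inside the gene stood higher at 48 and 72 h and overlapped 0 h at 96 h, at rank 13245 and 11203 in undamaged liver, 7631 and 10718 (48 h), 6505 and 4523 (72 h) and 11760 and 13280 (96 h). The region 22585 bp inside the gene ranked 32431 and 32487 in undamaged liver, 27706 and 42887 (48 h), 41390 and 40039 (72 h) and 76354 and 73459 (96 h).

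**Figure D5:**
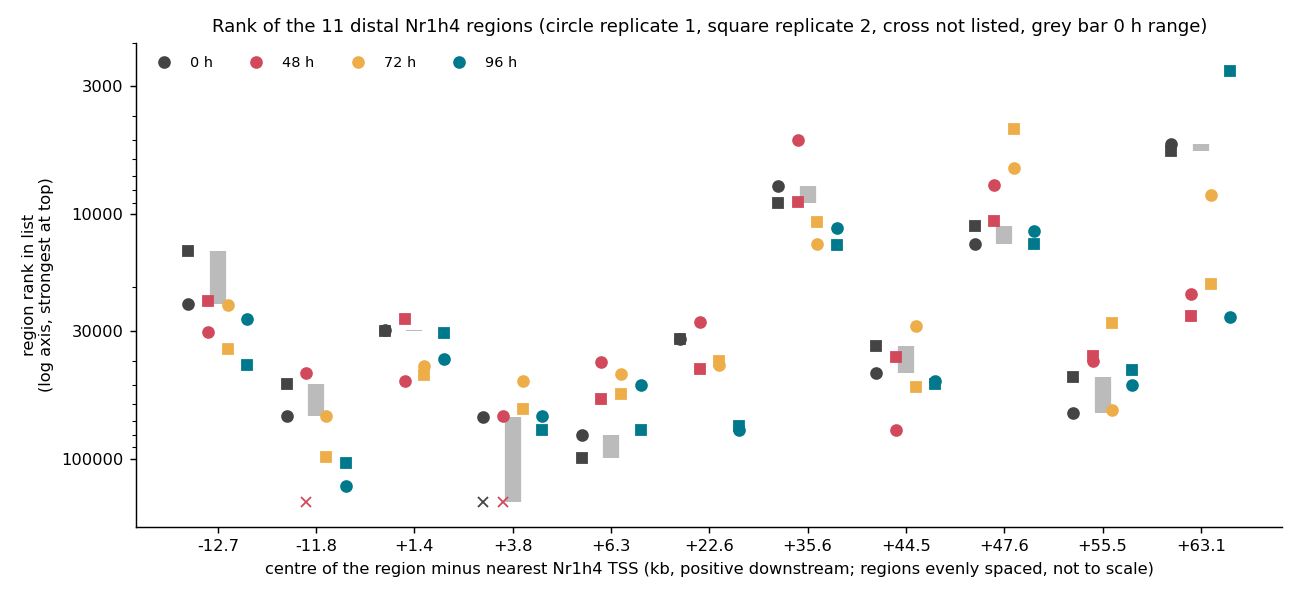
Rank of the 11 distal regions of Nr1h4 (log axis, strongest at the top) by distance of their centre from the nearest Nr1h4 TSS (kb, evenly spaced), coloured by time after PHx, with circles for replicate 1, squares for replicate 2, crosses where not listed and grey bars over the 0 h range. At 6306 bp all later libraries lie above the bar, and at 22585 bp both 96 h libraries lie well below it.

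In the linear model of regions, 32 of the 45 were tested and 0 were called. Over 55123 regions limma called 0 at 48 h (0.0%), 0 at 72 h (0.0%), 0 at 96 h (0.0%) and 0 over all later libraries (0.0%), and 5639, 3502, 3160 and 4380 had an unadjusted p under 0.05, among them 5, 3, 3 and 4 member regions. With −log10 p in place of fold enrichment limma called 21, 2, 1 and 34 regions, 0 of them members. Of the 32 member regions 16 had an estimate below 0 and 16 above it at each of the 3 times. Their median log2 change lay between -0.03 and 0.00. The lowest estimate with an unadjusted p under 0.05 was that of a region downstream of Cyp7a1 (chr4:6257997-6258538) at 72 h, at -1.16 ± 0.38 (SE, p 0.0064 and adjusted p 0.618 from limma), where fold enrichment was 3.16 and 2.10 against 4.52 and 8.30 at 0 h.

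Searched in the 200 bases at their summits, the 45 regions held a FOXA match in 6 (9.10% of 59130 regions), a C/EBP match in 8 (15.2%), AP-1 in 5 (9.01%), NR5A2 in 2 (1.84%), DR1 in 1 (2.49%) and HNF1 in 1 (2.04%). The FXR core (0.59% of all) and HNF4 (1.60%) matched in 0 of the 45. A region 1165 bp before the Nr0b2 TSS held NR5A2, DR1 and C/EBP matches together. Its ranks were 42119 and 50461 at 0 h, 88138 at 48 h with no interval in replicate 2, 33400 and 50165 at 72 h, and 30050 and 21223 at 96 h. It was thus lower at 48 h and higher at 96 h.

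The wider pathway was read from 44 other bile acid genes, of which 43 had a promoter interval in the shared range. By rank 15 stood lower and 6 higher at 48 h as well as 72 h, 15 lower and 5 higher at 96 h, and 7 lower and 1 higher in all later libraries. The percentage scale was not used for these counts. As a share of list length, the calls of Nr1i3, Slc27a5 and Amacr over all later libraries did not hold. Of all coding promoters, 26.0% (48 h), 28.4% (72 h), 17.9% (96 h) and 6.98% (all later libraries) ranked lower, while 15.7%, 15.1%, 13.4% and 3.95% ranked higher, and the same shares stand beside the 3 groups of genes that follow. Among 14 other synthesis and conjugation genes, 6, 7 and 7 promoters ranked lower at 48, 72 and 96 h and 0 ranked higher, and 4 ranked lower in all later libraries (Cyp46a1, Amacr, Slc27a5 and Hsd17b4). Among 14 other transport genes 3, 5 and 3 ranked lower and 3, 2 and 1 higher, with Abcg5 and Abcg8 sharing 1 promoter interval. Among 16 other regulators 6, 3 and 5 ranked lower and 3, 4 and 4 higher.

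The 5 with the largest shift of median rank among those apart in all later libraries were all lower by rank. Nr1i3, the xenobiotic receptor CAR, ranked 34408 and 42933 at 0 h and 43969 to 70670 later. Slc27a5, which activates bile acids with coenzyme A before Baat acts, ranked 25199 and 20686 at 0 h and 27228 to 38318 later. Fgfr3, a receptor related to Fgfr4, ranked 20177 and 18048 at 0 h and 24482 to 41881 later. Abcb4, the phospholipid floppase of the canaliculus, ranked 2116 and 1740 at 0 h and 2456 to 11017 later. Cyp46a1, the cholesterol 24-hydroxylase, ranked 3497 and 1580 at 0 h and 3559 to 12931 later. As a share of list length, Fgfr3, Abcb4 and Cyp46a1 stayed lower, while Nr1i3 and Slc27a5 did not in every later library. Nr1i3 stood at 42933 of 105206 intervals in 0 h replicate 2 and at 43969 of 127561 in 96 h replicate 2. Slc27a5 stood at 25199 of 126773 in 0 h replicate 1 and at 27228 of 154577 in 72 h replicate 2. Atp8b1, a canalicular phospholipid flippase, was the only one of the 44 that ranked higher in all later libraries, at 955 and 794 at 0 h and 279 to 661 later, and is named after its values were seen. The Fgf15 promoter, of the hormone that Fgfr4 receives, ranked higher at 48 and 72 h, at 6594 and 6585 and at 5241 and 5364 against 10892 and 30868 at 0 h, and is likewise named after its values were seen.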

How the data were processed

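Bulk ATAC-Seq of isolated hepatocytes gave 8 libraries. Per the study's methods, the authors trimmed and mapped reads to mm10 with Bowtie2, removed duplicates and called peaks per library with MACS2, in the ENCODE pipeline. The deposited lists give a display score (not used), a fold enrichment ratio, −log10 p, −log10 q and a summit for each peak. File names state Tn5-shifted tags, a p threshold, a cap and a blacklist filter. Lines sharing an interval were collapsed to the highest −log10 p. Genes were from GENCODE M21 basic and sequence from NCBI RefSeq's GRCm38.p6, on which 0 intervals passed a chromosome end. Consensus regions merged the 50000 strongest intervals of each library where they overlapped by at least 1 bp. limma 3.58.1 (R 4.3.3) was fitted to all 8 libraries with quantile-normalized log2 fold enrichment, trend and robust settings, over features listed in all 8. On simulated data its estimates centred on the changes put in, but it called few or none of them, so 0 calls do not show that accessibility was equal. The study's count model needs reads, which the lists do not hold. The members, lists and tests were chosen with earlier results of these data known. Named were all 10 genes, each gene's distal region of best median rank, regions apart in all later libraries, and the 5 other bile acid genes of largest median shift among those apart in all later libraries. Other regions or genes were named after their values were seen. Same-numbered replicates did not deviate together (correlations -0.11 to 0.17), so no pairing was used. Python 3.11.15 with numpy 2.4.6 and pandas 2.3.3 did the rest.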

Additional observations from a re-analysis of the deposited data

Results flagged for a closer look

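The region 1165 bp before the Nr0b2 TSS (chr4:133552046-133552375) was flagged because both 48 h libraries ranked lower than undamaged liver and both 96 h libraries higher. The mean rank at 96 h minus that at 48 h, with absence set just past the shared range, was -71036. The region downstream of Fgfr4 (chr13:55171457-55172445) was flagged because both 48 h libraries ranked higher than undamaged liver and both 72 h libraries lower, and the mean rank at 72 h minus that at 48 h was 21018.5. The 72 h call there was lost with the percentage of the list in place of the rank. Neither difference between times was tested, and both times of each pair are compared with the same 0 h libraries.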

How the results depend on the processing

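Leaving out 1 library at a time gave 3 to 6, 3 to 7, 5 to 7 and 0 to 4 member promoters ranked lower at 48, 72, 96 h and all later times, and 1 to 4, 0 to 2, 1 to 1 and 0 to 1 ranked higher, beside 36.8% to 42.2%, 40.4% to 44.2%, 29.9% to 40.1% and 7.91% to 21.3% of coding promoters lower and 24.4% to 31.3%, 24.2% to 29.2%, 23.6% to 34.8% and 4.58% to 12.0% higher. For distal regions it gave 16 to 25, 21 to 26, 19 to 24 and 5 to 12 lower and 7 to 18, 6 to 9, 10 to 12 and 1 to 2 higher, beside 34.8% to 38.3%, 32.0% to 34.1%, 31.3% to 37.2% and 6.68% to 16.9% of regions lower and 27.5% to 35.6%, 33.1% to 37.6%, 26.9% to 36.8% and 4.99% to 14.4% higher. These counts grow by construction, since fewer libraries must clear the 0 h range. The promoter fit then called 0 to 6, 0 to 4, 0 to 0 and 0 to 11 features, and the region fit 0 to 7, 0 to 6, 0 to 1 and 0 to 40, of which 0 were members. By fold enrichment rank 1 member promoter ranked lower and 1 higher at 48 h (18.2% and 18.9% of coding promoters), 2 lower and 0 higher at 72 h (23.8% and 15.1%), and 2 lower and 2 higher at 96 h (13.4% and 14.2%). With the percentage scale 2 ranked higher at 48 h, 1 lower at 72 h and 1 higher at 96 h. For distal regions that scale gave 10 higher at 48 h, 5 lower and 12 higher at 72 h, 10 lower and 8 higher at 96 h, and 2 lower and 3 higher at all later times. The scale divides by the length of each list and also drops the limit at rank 105206, and the cause of this turn was not tested. Consensus regions from 25000 intervals left 20 member regions, with 6 lower and 3 higher, 8 and 1, 6 and 3, and 1 and 0 in the same order of times, beside 22.6% and 23.0%, 18.5% and 24.0%, 18.2% and 18.6%, and 5.37% and 5.47% of all regions of that set. A window of 50 kb gave 118 regions, with 36 lower and 16 higher, 45 and 7, 36 and 9, and 14 and 2, to be set beside the shares given for the 59130 regions. The 20 and the 118 leave out only promoters of their own gene. The shares beside them leave out all coding promoters, so the sets are unlike. The fits called features with −log10 p (13, 6, 2 and 37 promoters, 21, 2, 1 and 34 regions), 1 promoter with median scaling and 2 with missing intervals at the list minimum, both over all later libraries, and the cause was not tested. At 48 h the log2 change turned for Cyp7b1 (-0.0939) and Nr0b2 (-0.0868) with −log10 p and for Nr1h4 with median scaling (0.00403). It ranged without 1 library from -1.45 to 0.0522 for Cyp7a1, -0.12 to 0.23 for Nr0b2, -0.10 to 0.30 for Baat, 0.02 to 0.40 for Abcb11 and 0.003 to 0.26 for Slc10a1. The replicate block called 0 promoters and 0 regions, and so did a crossed pairing at 72 h, added after seeing the data. Whether replicate numbers pair the samples is not known from the labels, which do not tie a library to a mouse. The unknown depth limits every rank.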
